A study of Rattus norvegicus with 4 samples.

Results

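The genes described here carry pyruvate into the mitochondrion and turn the tricarboxylic acid (TCA) cycle. They are 33 genes chosen by name for their step, from the mitochondrial pyruvate carrier to malate dehydrogenase, of which 31 had an array row naming that gene alone, out of 14506 such genes on the array. Fh, the fumarase gene, is not analysed here, and neither is Dlst, the succinyltransferase of oxoglutarate dehydrogenase, whose row also names another gene. The RNA came from retroperitoneal fat, which lies behind the abdominal cavity, of male WNIN/Ob rats aged 4 months, a strain with a lean and an obese phenotype. Each of 2 lean and 2 obese rats gave 1 Affymetrix Rat Gene ST array. All were untreated, fed stock diet and acclimatised for 1 week, and the sources used here do not give the genotype behind the phenotypes. The comparison asked how baseline expression differs between obese and lean fat.

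Pyruvate made in the cytosol crosses the inner mitochondrial membrane through a carrier built from Mpc1 and Mpc2, and is then either carboxylated to oxaloacetate by Pc or oxidised to acetyl-CoA by the pyruvate dehydrogenase complex. Kinases (Pdk1 to Pdk4) switch that complex off by phosphorylation and phosphatases (Pdp1, Pdp2) switch it back on. The cycle condenses acetyl-CoA with oxaloacetate to citrate and oxidises it stepwise. In fat cells citrate can also leave the mitochondrion to supply carbon for fatty acid synthesis, which draws on Pc to refill the cycle.

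Values are log2 intensities, and differences are obese minus lean in the same log2 units, so that 1 is a doubling. The number of arrays limits their precision. Before the members, the arrays themselves need describing. Lean rat 1 carried a strong skeletal muscle signal. All 18 measured muscle markers were highest in that rat, with a median of 11.47 there against 5.39 in lean rat 2 and 5.40 and 5.14 in the obese rats. Acta1, the actin of skeletal muscle fibres, was at 12.88, 6.98, 7.67 and 6.56 in the same order. Lean rat 2 had the narrowest spread over all rows, with an interquartile range of 2.24 against 2.63 to 2.77 on the other arrays. Adipocyte markers were present on every array. The summed level of 8 of them, as the log2 of the sum, was 13.69 and 13.76 in the lean rats against 14.02 and 14.21 in the obese rats. That of 8 macrophage markers was 11.26 and 11.27 in the lean rats against 13.49 and 12.78 in the obese rats. Among the macrophage markers 6 had both obese rats above both lean rats, against 26.4% of all genes. The groups overlapped for Cd163 (-0.05) and C1qa (0.27). In a bulk sample fewer cells of a type and less RNA per cell cannot be told apart. Muscle and macrophages also express the genes described here, and the part of either in the results was not tested. As the muscle signal differed between the lean rats, many differences below are also given against each lean rat. The macrophage level was nearly the same in both lean rats, so these comparisons cannot separate it from the phenotype.

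**Figure D1:**
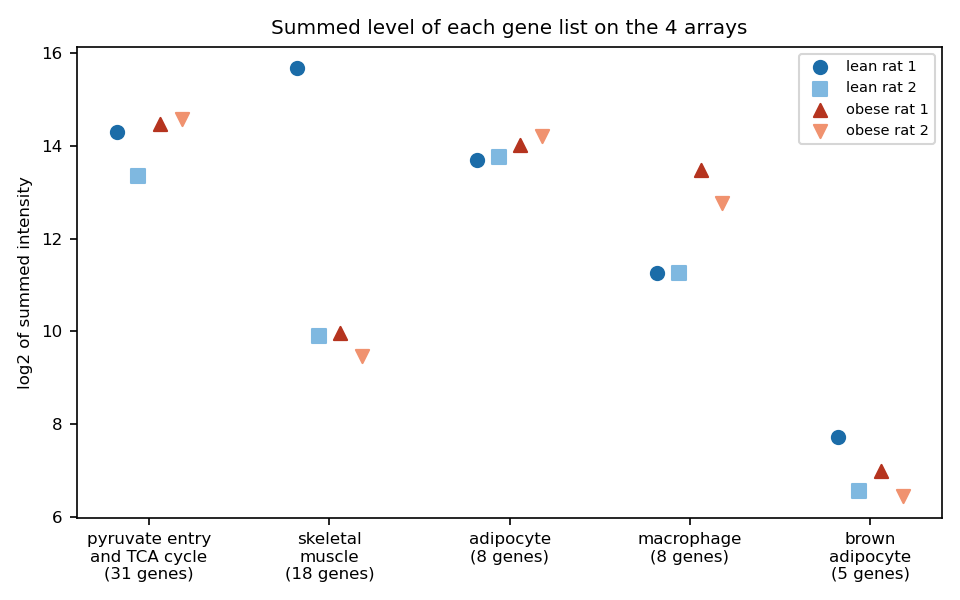
Log2 of the summed intensity of each gene list (vertical axis) on the 4 arrays, 1 symbol per rat and no error bars, for the pyruvate and TCA cycle genes and 4 lists of cell type markers. The muscle list stands at 15.67 in lean rat 1 and at 9.48 to 9.96 on the other arrays, and the pyruvate and TCA cycle genes are lowest in lean rat 2, at 13.35.

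Most pyruvate and TCA cycle genes had higher values in the obese rats, 26 of 31 by their group means, but no single member passed the test. The median difference of the 31 members was 0.75, against 0.00047 over all 14506 genes, and it ran from -0.75 for Pdk4 to 1.80 for Mpc1. Limma called 0 members at an adjusted p under 0.05 (Benjamini-Hochberg over all genes), where 0.772% of all genes were called higher and 0.0689% lower. At an unadjusted p under 0.05 there were 12 members higher, 38.7% of them against 9.93% of all genes, and 0 lower, against 5.33%. For 17 members the lower obese rat was above the higher lean rat, 54.8% against 26.4% of all genes, and for 1 member, Pdk2, the groups were apart the other way, against 21.3% of all genes. Bright genes as a whole leaned the same way. Among the 1745 genes with a mean of at least 8 the median difference was 0.31 and 43.6% had both obese rats above both lean rats, against 0.75 and 56.0% for the 25 members that bright. An exact permutation test (two-sided) of 1 gene over so few rats has 0.333 as its smallest possible p.

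The lean rats differed from each other in these genes about as much as the phenotypes did. Every member was higher in lean rat 1 than in lean rat 2, where 41.7% of all genes were, and the median gap was 0.84. Lean rat 2 was the lowest of the 4 arrays for 28 members, against 28.7% of all genes. The median difference was therefore 1.21 against lean rat 2 and 0.30 against lean rat 1. Both obese rats exceeded lean rat 2 for 28 members (90.3%, against 39.5% of all genes) and lean rat 1 for 17 (54.8%, against 43.8%). Both lay below lean rat 2 for 1 member, against 44.9% of all genes. Over the 1745 bright genes the median was 0.46 against lean rat 2 and 0.15 against lean rat 1, while for the 25 bright members it was 1.21 and 0.30. Of the members 80.6% were that bright, against 12% of all genes. Lean rat 1 minus lean rat 2 had a median of 0.26 over bright genes and 0.86 for bright members, against -0.10 over all genes. The part of the narrower spread of lean rat 2 in these gaps was not tested.

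With 1 rat left out, the counts moved with the rat. Without lean rat 1 limma called 8 members, all higher, or 25.8% against 4.58% of all genes, while 2.87% of all genes were called lower. The 8 were Mpc1, Mpc2, Pdhb, Dlat, Dld, Pdp2, Idh1 and Idh3a. At an unadjusted p under 0.05 there were then 23 members higher and 0 lower, against 17.3% and 15.6% of all genes. That fit had a lone lean array, assumed to vary like the others. Without lean rat 2 limma called 0 members, with 1.34% of all genes called higher and 1.94% lower. At an unadjusted p under 0.05 there were 3 members higher and 1 lower, against 10.1% and 6.69% of all genes. Without obese rat 1 limma called 1 member, Mpc1 (1.02% of all genes higher and 0.827% lower), and 8 members were higher and 0 lower at an unadjusted p under 0.05, against 4.80% and 2.76% of all genes. Without obese rat 2 limma called 0 members (1.62% and 0.834% of all genes), and 4 were higher and 0 lower at an unadjusted p under 0.05, against 5.63% and 3.36%.

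**Figure D2:**
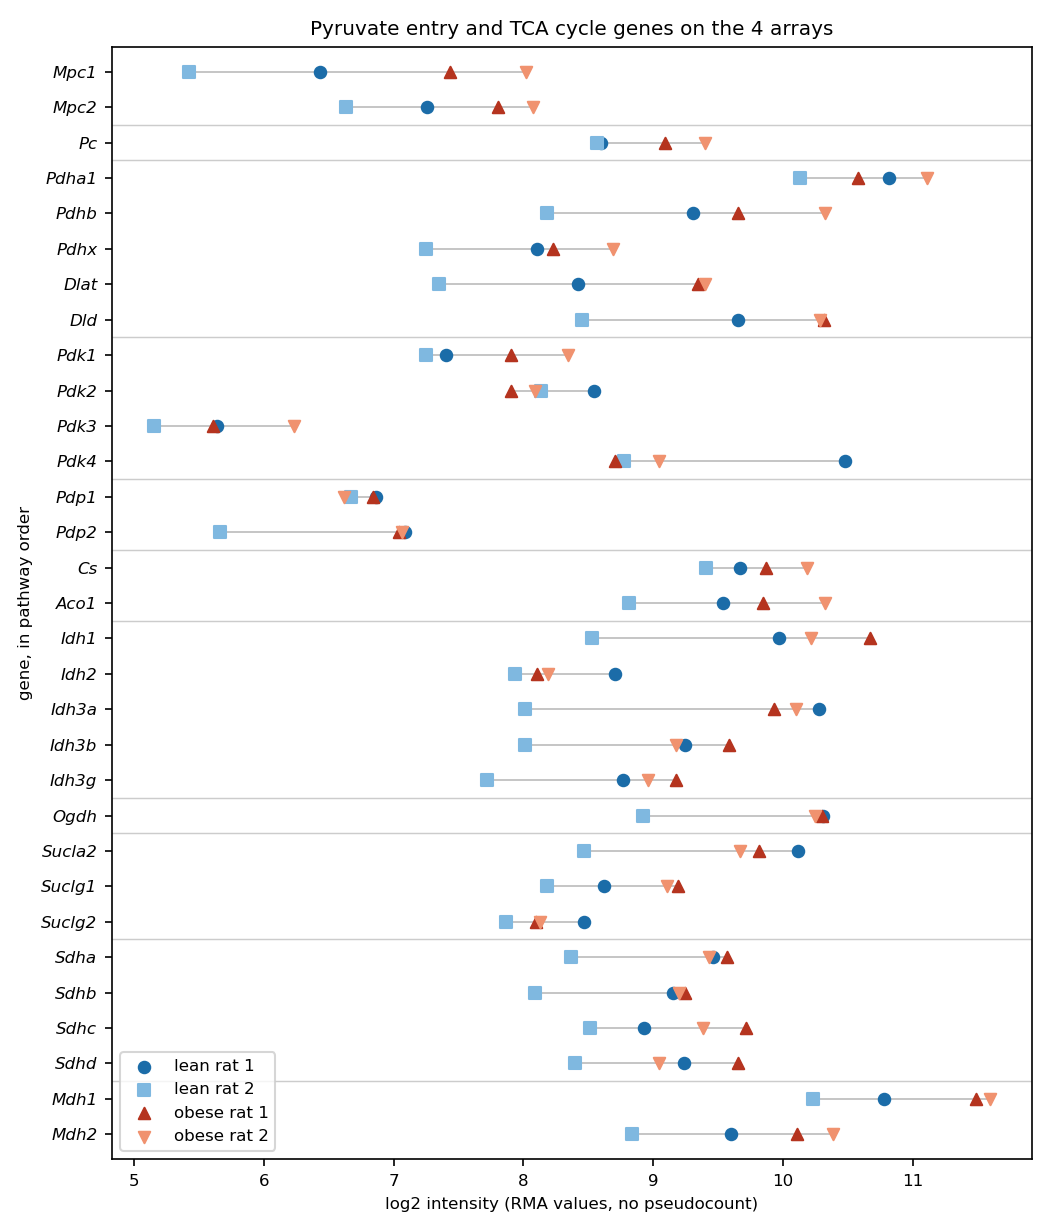
Log2 intensity (horizontal axis) of the 31 measured genes in pathway order, with 1 symbol per rat, a grey line spanning the 4 values and rules between steps. Lean rat 2 lies at the left for 28 genes, and lean rat 1 lies at the right for 9, among them Pdk4 and Idh3a. Rows of different genes are not comparable in level.

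The mitochondrial pyruvate carrier had the largest difference of any member. Mpc1, an obligate subunit of the carrier, was at 6.43 and 5.42 in the lean rats and at 7.44 and 8.02 in the obese rats. The groups did not overlap, and the nearest lean and obese rats were 1.01 apart. The difference was 1.80 ± 0.39 (SE, n = 2 per group), a 3.49-fold ratio, with a limma adjusted p of 0.0934. It was 1.30 against lean rat 1 and 2.31 against lean rat 2. Without obese rat 1 it was 2.10, and without obese rat 2 it was 1.51. Mpc2, the partner subunit, was at 7.26 and 6.63 in the lean rats and 7.80 and 8.07 in the obese rats. Its groups did not overlap either, at 0.99 ± 0.32 (adjusted p = 0.224), or 0.68 against lean rat 1 and 1.30 against lean rat 2.

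Pyruvate carboxylase, encoded by Pc, stood apart in that the lean rats hardly differed. It was at 8.60 and 8.57 in the lean rats and at 9.09 and 9.40 in the obese rats. The obese rats were higher by 0.66 ± 0.30 (adjusted p = 0.346), by 0.64 against lean rat 1 and 0.68 against lean rat 2. The gap between the lean rats was 0.035, the smallest of all members.

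Of the 5 genes of the pyruvate dehydrogenase complex, 4 were above both lean rats in both obese rats, and the list's median difference was 1.25. So placed were 26.4% of all genes and 43.6% of the 1745 bright genes. Dlat, the acetyltransferase that forms the core, was at 8.42 and 7.35 in the lean rats and at 9.34 and 9.40 in the obese rats. The obese rats were close together and the lean rats were 1.07 apart, and the difference was 1.49 ± 0.39 (adjusted p = 0.150), 0.95 against lean rat 1 and 2.02 against lean rat 2. Another array row named Dlat gave 1.44. Dld, the dehydrogenase that this complex shares with the oxoglutarate and branched-chain complexes, was at 9.65 and 8.45 in the lean rats and at 10.32 and 10.29 in the obese rats. Its difference was 1.25 ± 0.42 (adjusted p = 0.242), and 0.65 against lean rat 1. Pdhb, the beta subunit of the decarboxylase, was at 9.30 and 8.18 in the lean rats and at 9.66 and 10.32 in the obese rats. It was also at 1.25 (SE 0.44, adjusted p = 0.256), and the obese rats were themselves 0.67 apart. Pdhx, which anchors Dld to the core, was at 8.10 and 7.25 against 8.23 and 8.69, a difference of 0.78 in which obese rat 1 barely exceeded lean rat 1.

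Pdha1, the alpha subunit that carries the phosphorylation sites, did not follow its partner Pdhb. It was at 10.82 and 10.13 in the lean rats and at 10.58 and 11.11 in the obese rats, so that the groups overlapped. The difference was 0.37 ± 0.37 (adjusted p = 0.679), and 0.026 against lean rat 1. The other row named Pdha1 also gave 0.37.

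The kinases of the complex ran in different directions. Pdk1 was at 7.40 and 7.25 in the lean rats and at 7.91 and 8.34 in the obese rats. The groups did not overlap and the lean rats were only 0.15 apart, with a difference of 0.80 ± 0.30 (adjusted p = 0.275). Pdk2, a widely expressed isoform, was at 8.54 and 8.13 in the lean rats and at 7.90 and 8.09 in the obese rats. It was the only member below both lean rats in both obese rats, by 0.045 at the nearest pair, and its difference was -0.34 ± 0.30 (adjusted p = 0.634). Pdk3 overlapped, at 5.64 and 5.15 against 5.61 and 6.23, a difference of 0.52.

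Pdk4, the isoform induced by fasting and fatty acids and abundant in muscle, had the most negative difference and depended on lean rat 1. It was at 10.48 and 8.78 in lean rats 1 and 2 and at 8.70 and 9.05 in the obese rats. Lean rat 1 was high and the other 3 arrays lay close together. The difference of -0.75 ± 0.53 (adjusted p = 0.531) was -1.60 against lean rat 1 and 0.099 against lean rat 2. Of the phosphatases, Pdp1 was level, at 6.87 and 6.67 against 6.84 and 6.62. Its difference of -0.04 ± 0.27 was above 0 with arrays centred on their medians, at 0.057. Pdp2 was low in lean rat 2 only, at 7.08 and 5.66 against 7.04 and 7.07. It was at -0.030 against lean rat 1 and 1.39 against lean rat 2.

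**Figure D3:**
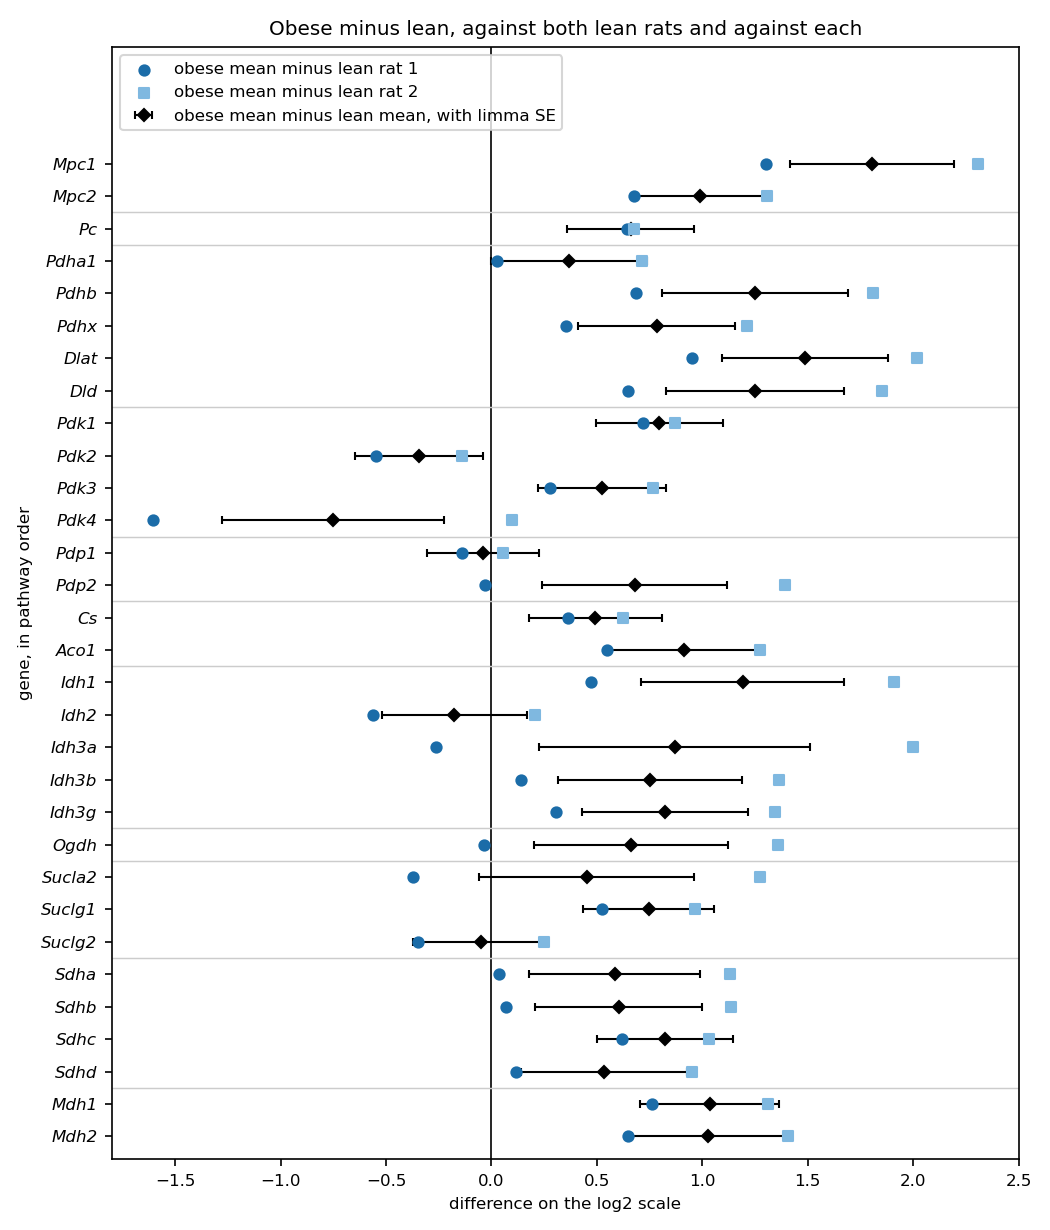
Difference on the log2 scale (horizontal axis) for the 31 genes in pathway order. Diamonds with bars are the obese mean minus the lean mean with limma's standard error (2 rats per group), circles the obese mean minus lean rat 1 and squares the obese mean minus lean rat 2. Circles lie left of squares for every gene, close together for Pc and 2.26 apart for Idh3a.

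At the entry of the cycle, Cs, the citrate synthase, was at 9.67 and 9.40 in the lean rats and at 9.87 and 10.18 in the obese rats. The groups did not overlap, but the difference was 0.49 ± 0.31 (adjusted p = 0.491). A dimmer row named Cs gave 0.31. Aco1 encodes the cytosolic aconitase, which also serves as an iron-sensing RNA-binding protein. It was at 9.54 and 8.81 against 9.85 and 10.33, a difference of 0.91 ± 0.37 (adjusted p = 0.299), and 0.55 against lean rat 1.

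Of the isocitrate dehydrogenases, the cytosolic and the mitochondrial NADP-linked enzyme had unlike values. Idh1, the cytosolic enzyme that makes NADPH, was at 9.97 and 8.53 in the lean rats and at 10.67 and 10.21 in the obese rats. The groups did not overlap, and the difference was 1.19 ± 0.48 (adjusted p = 0.299), 0.47 against lean rat 1 and 1.91 against lean rat 2. Idh2, its mitochondrial counterpart, was at 8.71 and 7.94 in the lean rats and at 8.10 and 8.19 in the obese rats. The obese rats lay between the lean rats, at -0.18 ± 0.34 (adjusted p = 0.848).

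All 3 subunits of the NAD-dependent enzyme of the cycle were lowest in lean rat 2. Idh3a, the catalytic subunit, was at 10.28 and 8.02 in the lean rats and at 9.93 and 10.10 in the obese rats. The gap of 2.26 between the lean rats was the largest of all members. The difference of 0.87 ± 0.64 (adjusted p = 0.556) was -0.26 against lean rat 1 but 2.00 against lean rat 2. Idh3b, at 9.24 and 8.02 against 9.58 and 9.17, overlapped (0.75), while Idh3g, at 8.76 and 7.72 against 9.18 and 8.96, did not (0.82 ± 0.39, adjusted p = 0.364). Against lean rat 1 alone Idh3b was at 0.14 and Idh3g at 0.30.

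The middle of the cycle varied in its place relative to lean rat 1. Ogdh, which decarboxylates oxoglutarate, was at 10.31 and 8.92 in the lean rats and at 10.30 and 10.25 in the obese rats. Lean rat 2 alone was low, and the difference of 0.66 ± 0.46 (adjusted p = 0.529) was -0.036 against lean rat 1. Sucla2 makes the ATP-forming succinyl-CoA synthetase and Suclg2 the GTP-forming one, each with the shared subunit Suclg1. Sucla2 was at 10.11 and 8.47 against 9.82 and 9.67, a difference of 0.45 that was -0.37 against lean rat 1. Suclg2 was at 8.46 and 7.86 against 8.10 and 8.13, a difference of -0.05 that was 0.047 with arrays centred on their medians. The shared subunit Suclg1 did not overlap, at 8.62 and 8.18 against 9.19 and 9.11 (0.75 ± 0.31, adjusted p = 0.313).

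Succinate dehydrogenase, which belongs to the respiratory chain as well as the cycle, showed a narrow range of differences over its 4 subunits, from 0.53 to 0.82. Sdhc, a membrane anchor that holds the haem, was the highest, at 8.93 and 8.52 in the lean rats and 9.71 and 9.38 in the obese rats. Both obese rats were above both lean rats by more than the lean rats differed, and the difference was 0.82 ± 0.32 (adjusted p = 0.289) and 0.62 against lean rat 1. The flavoprotein Sdha, the iron-sulphur subunit Sdhb and the other anchor Sdhd were at 0.58, 0.60 and 0.53. Against lean rat 1 they were at 0.038, 0.070 and 0.12.

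The malate dehydrogenases closed the cycle with matching values. Mdh1, the cytosolic enzyme of the malate-aspartate shuttle, was at 10.78 and 10.23 in the lean rats and at 11.48 and 11.59 in the obese rats. Mdh2, the mitochondrial enzyme, was at 9.60 and 8.84 in the lean rats and at 10.11 and 10.38 in the obese rats. In both genes each obese rat exceeded each lean rat. The differences were 1.04 ± 0.33 for Mdh1 (adjusted p = 0.220) and 1.03 ± 0.36 for Mdh2 (adjusted p = 0.256), and against lean rat 1 they were 0.76 and 0.65.

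By their place relative to lean rat 1 the members fell into 3 sets. In 17, both obese rats were above lean rat 1: Mpc1, Mpc2, Pc, Pdhb, Pdhx, Dlat, Dld, Pdk1, Cs, Aco1, Idh1, Idh3g, Suclg1, Sdhb, Sdhc, Mdh1 and Mdh2. As every member was higher in lean rat 1 than in lean rat 2, these are the same 17 whose groups did not overlap. Lean rat 1 lay between the obese rats in 5, or 16.1% against 24% of all genes, and these were Pdha1, Pdk3, Idh3b, Sdha and Sdhd. It was above both in 9, or 29.0% against 31.8% of all genes, and these were Pdk2, Pdk4, Pdp1, Pdp2, Idh2, Idh3a, Ogdh, Sucla2 and Suclg2. The carrier, Pc, Cs and the malate dehydrogenases thus lay wholly in the upper set, and the phosphatases and Ogdh in the lower. The sets describe these 4 arrays and were not tested.

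**Figure D4:**
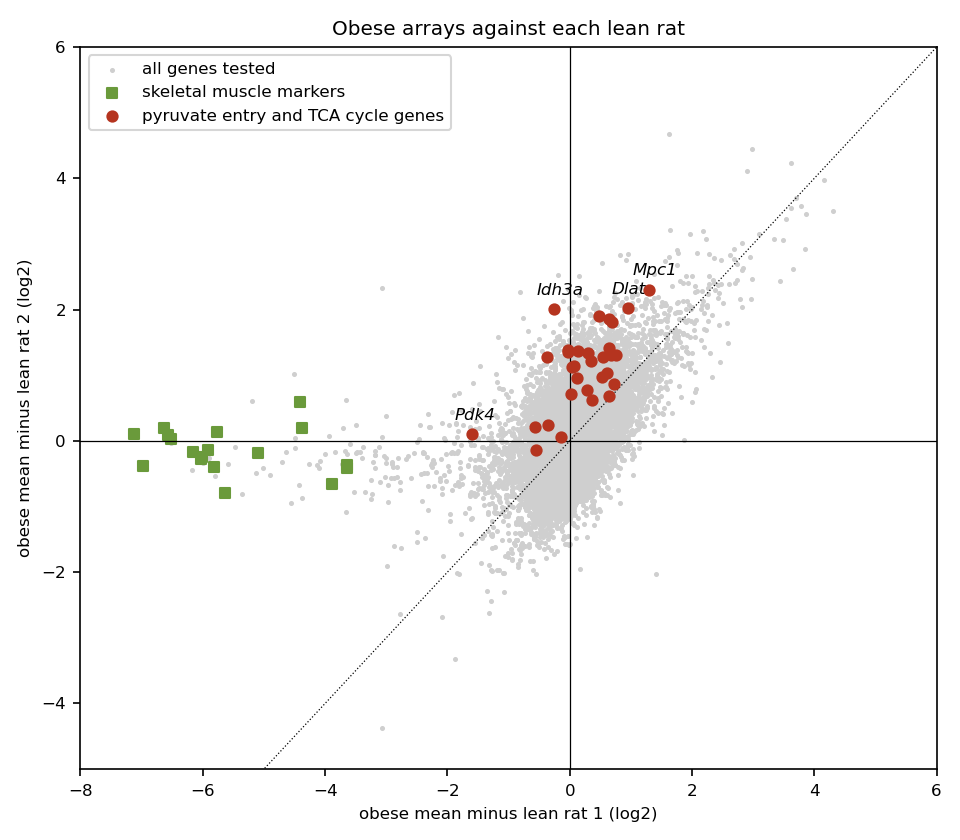
Obese mean minus lean rat 1 (horizontal) against obese mean minus lean rat 2 (vertical), both on the log2 scale, for all 14506 genes (grey), the 31 pyruvate and TCA cycle genes (red circles) and the 18 measured muscle markers (green squares), with a dotted line of equal values. The muscle markers lie far to the left, and every red circle lies above the dotted line, as all 31 members were higher in lean rat 1 than in lean rat 2.

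Other genes of the pathway were read from lists of pyruvate supply, cofactor assembly, and carriers and exits of the cycle. Of 37 measured, 2 rose and 0 fell by limma, beside 0.772% and 0.0689% of all genes, and the median was 0.44. Slc25a10, the carrier that exchanges malate or succinate for phosphate, was at 7.17 and 6.88 in the lean rats and at 9.09 and 8.95 in the obese rats. It rose by 1.99 ± 0.29 (adjusted p = 0.0279) and was called against either lean rat alone, at 1.85 and 2.14 (adjusted p = 0.0283 and 0.0289). Acly, which splits exported citrate into acetyl-CoA and oxaloacetate, was at 8.27 and 7.66 in the lean rats and 9.90 and 10.44 in the obese rats, and rose by 2.21 ± 0.36 (adjusted p = 0.0415). Neither gene was called with quantile normalization, which left 0 of the 37.

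The malic enzymes, which turn malate into pyruvate, had values in both directions, none past the threshold. Me1, the cytosolic NADPH-making form, was at 9.33 and 8.15 in the lean rats and at 10.54 and 11.36 in the obese rats (2.21 ± 0.47, adjusted p = 0.0887). Me2, a mitochondrial form, was at 6.61 and 6.03 against 7.78 and 7.90 (1.52 ± 0.30, adjusted p = 0.0743). Me3, the mitochondrial NADP-linked form, was at 5.55 and 5.44 against 4.44 and 4.25, below both lean rats in both obese rats (-1.15 ± 0.22, adjusted p = 0.0714). Of 12 genes of the remaining cycle and cofactor assembly none was called. Those with the smallest p were Sdhaf3, an assembly factor of succinate dehydrogenase (0.60), D2hgdh, which oxidises 2-hydroxyglutarate (0.70), and Adhfe1 (-0.82). Adhfe1 was highest in lean rat 1, at 7.57 against 6.06 in lean rat 2 and 5.78 and 6.20 in the obese rats.

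Promoter sequences were read for the kinase Pdk4 and for the carrier and core genes Mpc1 and Dlat, which lay at opposite ends of the range. The low place of Pdk4 rested on lean rat 1. Its difference was -1.60 against that rat and 0.099 against lean rat 2. RefSeq (GRCr8) gave a sequence from 250 bases before to 50 after the start for 27 of the 31 members. They are printed 5′ to 3′ on the gene's strand, with CCAAT or its reverse complement ATTGG in capitals:
Mpc1 (chr1:54996909-54997208, minus strand): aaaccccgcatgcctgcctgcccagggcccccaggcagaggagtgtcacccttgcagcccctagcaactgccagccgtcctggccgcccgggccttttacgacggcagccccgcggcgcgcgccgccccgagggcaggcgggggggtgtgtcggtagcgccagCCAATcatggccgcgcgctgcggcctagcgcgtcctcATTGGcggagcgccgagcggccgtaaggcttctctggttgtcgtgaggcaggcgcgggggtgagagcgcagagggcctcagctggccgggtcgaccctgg
Dlat (chr8:59900769-59901068, minus strand): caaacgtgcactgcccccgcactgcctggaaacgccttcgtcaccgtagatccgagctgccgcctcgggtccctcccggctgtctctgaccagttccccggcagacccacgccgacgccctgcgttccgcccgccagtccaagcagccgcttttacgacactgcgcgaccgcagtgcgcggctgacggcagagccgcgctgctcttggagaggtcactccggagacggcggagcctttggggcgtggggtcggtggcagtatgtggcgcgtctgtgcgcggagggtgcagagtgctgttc
Pdk4 (chr4:34568280-34568579, minus strand): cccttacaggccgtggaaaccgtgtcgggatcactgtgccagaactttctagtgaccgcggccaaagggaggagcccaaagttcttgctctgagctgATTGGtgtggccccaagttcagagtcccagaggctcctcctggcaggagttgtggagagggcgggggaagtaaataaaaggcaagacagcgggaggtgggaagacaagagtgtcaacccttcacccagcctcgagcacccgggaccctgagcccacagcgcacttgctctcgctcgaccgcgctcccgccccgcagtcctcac
Mpc1 held the letters on both strands, Pdk4 held them once and Dlat held none. CCAAT or ATTGG stood in 15 of the 27 member promoters and in 37.7% of all 27457 promoters of this length. The palindromic E-box CACGTG stood in 3, those of Ogdh, Pdhb and Pdk2 (6.65% of all), and the nuclear receptor core AAGGTCA or TGACCTT in 1, that of Sdhd (4.37% of all). The NRF1 core GCGCATGC or GCATGCGC stood in 1, that of Sdhb (2.66% of all), and the sterol element TCACCCCAC or GTGGGGTGA in 0 of 27, against 0.495% of all. The median GC content of these windows was 62.3% for the members and 52.3% for all promoters. A match is a description of letters, and none of these motifs overlapped another in the sequences printed.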

How the data were processed

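Values came from the series' value table of 4 arrays. The deposited values are intensities on a linear scale, and the submitters' processing notes name RMA (background correction, quantile normalization of probes and summarising). The sources used here name no software, version or probe-set level for it. Quantile normalization in RMA is meant to make arrays alike in distribution, which would damp a change shared by most genes. The deposited values still differed in spread, with an interquartile range of 2.24 in lean rat 2 and up to 2.77 elsewhere. How far such a change was damped here was not tested. Of 29214 rows, 15310 named 1 gene, 323 several and 13581 none, and only the first kind was used. For 527 genes with several rows, 3 of them members, the row with the highest mean was kept. Values were taken to log2 with no pseudocount. Obese and lean rats, each a separate animal, were compared over all 14506 genes with limma 3.58.1 in R 4.3.3 (lmFit, eBayes with a variance trend, no covariate), with Benjamini-Hochberg adjustment over all genes and a threshold of 0.05. The procedure was tested on simulated data with independent noise in each gene and no effect shared within an array. That setting does not cover differences between arrays such as the muscle signal of lean rat 1.

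The members and gene lists were chosen with earlier results of these data known, so lists are described by counts and medians with no set test. Every measured member is named. Of the other pathway lists, called genes or otherwise the 3 with the smallest p are named. Alternatives tried were a block for the rat number, quantile normalization, centring on medians, leaving out the lowest 25% of genes, no variance trend, a pseudocount of 16, the mean of a gene's rows, and each rat left out. Figures were drawn with matplotlib 3.10.9.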

Additional observations from a re-analysis of the deposited data

How the results depend on the processing

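The median difference of the members stayed above 0 under every alternative run, at 0.60 with quantile normalization, 0.84 with median centring, 0.72 with the pseudocount, and 0.30 (without lean rat 2) to 1.21 (without lean rat 1) with a rat left out. Members with every obese value above every lean value numbered 17 to 28 with a rat left out. The 28 came without lean rat 1, where 39.5% of all genes were so placed, against 26.4% with all 4 rats. Without lean rat 2 there were 17, against 43.8% of all genes. The share of all genes so placed was not counted with an obese rat left out. Quantile normalization gave 16 members apart with obese higher and 3 with obese lower. The shares of all genes apart in that setting were not counted, so these counts have no background beside them. With an obese rat left out, limma's variance came wholly from the trend shared among genes, so a call gained there is weak support. Across genes the rat 1 minus rat 2 gaps of the 2 phenotypes were hardly correlated (r = 0.020). With 1 gap per phenotype this cannot decide whether the rat numbers of the titles pair the arrays. With the replicate block 1 member, Mpc1, was called (adjusted p = 0.0385) and 6 of the other pathway genes instead of 2, while calls over all genes went from 0.841% to 2.25%. Those other genes numbered 0 with quantile normalization (0.517% of all genes called), 1 with median centring (0.793%), 1 with the pseudocount (0.600%) and 3 to 8 with a rat left out (1.85% to 7.45%). Signs turned for Pdp1 (0.057) and Suclg2 (0.047) with median centring. With a rat left out, Pdk4 ran from -1.60 to 0.099, Pdp1 from -0.15 to 0.068, Idh2 from -0.56 to 0.21, Suclg2 from -0.35 to 0.25, Pdp2 from -0.030 to 1.39, Idh3a from -0.26 to 2.00, Ogdh from -0.036 to 1.36 and Sucla2 from -0.37 to 1.27. The causes were not tested. Leaving out the lowest genes, dropping the variance trend and averaging rows left the count of called members at 0. Of all genes, 1%, 0.696% and 0.834% were called in the same order.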

Other observations

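Ldha, the lactate dehydrogenase subunit that reduces pyruvate to lactate, had a pair of array rows that disagreed. The row kept, brighter by its mean over the 4 arrays but not on 3 of them, was at 10.09 and 9.25 in the lean rats and at 10.08 and 10.43 in the obese rats. The other row was at 11.23 and 9.39 in the lean rats, but at 6.0 in obese rat 1 and 11.24 in obese rat 2, so that it gave -1.70 where the kept row gave 0.58. The rows of Pkm, which makes pyruvate from phosphoenolpyruvate, lay together at 0.45 to 0.55. The row that names both Dlst and Afdn was at 8.06 and 8.01 in the lean rats and at 8.39 and 8.43 in the obese rats, and cannot be given to either gene. Ldha and Dlst were singled out after their values were seen.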
